A study of Mus musculus with 4 samples.

Results

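Horizontal cells are the interneurons of the outer retina that receive input from photoreceptors and feed inhibition back onto them. The 10 genes described here are Lhx1, Onecut1, Onecut2, Onecut3, Prox1, Calb1, Gja10, Sept4, Adra2a and Ndrg1, out of 22558 gene symbols in the expression tables. Each was listed at 1 locus in every library. They were chosen by name with earlier results of these data known, so counts set beside all genes describe and do not test. Whole retinas were taken from Fezf2 knockout (KO) mice and from control littermates, whose genotype label is wildtype, both on the C57/BL/6J background, at postnatal day 14 (P14) and postnatal day 7 (P7). Total RNA was sequenced as 1 library per genotype and age, 4 libraries in all, so no group had a replicate. The labels give neither the design of the knockout allele nor the number of animals pooled for a library. The question posed by the series is what role the zinc-finger transcription factor Fezf2 plays in the developing retina.

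In the mouse, horizontal cells arise before birth and form a single type with a wide lateral axon terminal. Onecut1 and Prox1 are needed to make them, and Lhx1 is needed for them to settle in their own layer. The mature cells are coupled by gap junctions and are classically stained with antibodies against the calcium buffer calbindin. They are a small minority of retinal cells. Several of the 10 genes are also used by other retinal cells: Prox1 by AII amacrine and bipolar cells, Calb1 by amacrine and ganglion cells, and Ndrg1 by many cell types.

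RefSeq start windows, each running from 250 bases before to 50 bases after an annotated gene start in GRCm38.p6, were at hand for 6 of the 10 genes. Shown are those of Lhx1 (chr11:84525485-84525784, minus strand) and Onecut1 (chr9:74861671-74861970, plus strand), both of which had lower levels at P14 than at P7 and higher ones in KO than in control retina at P7. Those of Gja10 (chr4:32602333-32602632, minus strand) and Adra2a (chr19:54045009-54045308, plus strand) are shown as genes with higher levels at P14. The bounds of the ages were apart for Gja10 and Adra2a in KO retina and overlapped in control retina. Capitals mark the letters of a TATA box (TATAAA), those of a CCAAT box and, as most of a cAMP response element, the letters TGACGTC, each on either strand.
Lhx1: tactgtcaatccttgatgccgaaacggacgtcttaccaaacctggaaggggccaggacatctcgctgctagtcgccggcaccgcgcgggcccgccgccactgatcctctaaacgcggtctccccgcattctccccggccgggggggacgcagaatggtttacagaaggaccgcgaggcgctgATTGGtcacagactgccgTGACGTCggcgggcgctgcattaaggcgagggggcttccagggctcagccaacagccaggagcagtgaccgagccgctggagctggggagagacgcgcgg
Onecut1: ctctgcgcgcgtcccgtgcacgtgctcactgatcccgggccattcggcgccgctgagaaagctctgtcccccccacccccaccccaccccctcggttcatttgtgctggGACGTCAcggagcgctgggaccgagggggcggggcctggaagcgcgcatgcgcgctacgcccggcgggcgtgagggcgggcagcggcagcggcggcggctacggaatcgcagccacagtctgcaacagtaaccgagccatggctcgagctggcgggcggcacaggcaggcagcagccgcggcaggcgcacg
Gja10: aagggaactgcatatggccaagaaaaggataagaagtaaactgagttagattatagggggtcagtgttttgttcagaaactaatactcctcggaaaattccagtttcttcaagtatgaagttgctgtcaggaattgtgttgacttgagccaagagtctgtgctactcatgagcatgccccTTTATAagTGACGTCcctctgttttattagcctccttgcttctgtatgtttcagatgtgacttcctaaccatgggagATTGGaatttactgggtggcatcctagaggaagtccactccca
Adra2a: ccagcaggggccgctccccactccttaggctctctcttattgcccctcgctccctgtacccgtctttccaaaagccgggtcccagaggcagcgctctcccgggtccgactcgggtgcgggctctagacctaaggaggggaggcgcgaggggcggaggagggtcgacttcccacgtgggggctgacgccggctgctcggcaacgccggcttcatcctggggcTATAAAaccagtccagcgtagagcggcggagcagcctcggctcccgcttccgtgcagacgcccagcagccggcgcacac
TGACGTC, a motif picked after these sequences were read, was present in the windows of Lhx1, Onecut1 and Gja10, 50, 141 and 62 bases before the annotated start, and in 3.21% of all 32851 windows. The annotated start of Gja10 is its start codon (bases atg at the start position), so its window lies before the coding sequence rather than before a mapped transcription start. TATAAA or its reverse TTTATA was in 3 of the 10 windows of these 6 genes, 29 bases before the start of Adra2a, 70 bases before that of Gja10 and 34 bases before a start of Prox1, and in 13.6% of all windows. ATTGAT, a core bound by ONECUT proteins, and TAATTA, a LIM homeodomain type of site, were in 0 of the 10 windows, against 7.54% and 5.29% of all windows. The Gja10 window held 2 CpG dinucleotides, against a median of 7 over all windows, and those of Lhx1, Onecut1 and Adra2a held 31, 38 and 28. CAGCTG, an E-box, was in 2 of the 10 windows, both of Sept4, and in 16.3% of all. CCAAT was in 4 of the 10 windows, among them 68 bases before the start of Lhx1 and after the annotated start of Gja10, and in 37.4% of all windows. Both strands were searched, and a match is a description of letters, not of a bound site.

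Levels are in FPKM, fragments scaled by transcript length and library size, so they can be compared between genes. Each has a deposited lower and upper bound, which covers counting error within a library and not differences between mice. Levels are said to have bounds apart where those bounds do not overlap. For 1787 to 2217 symbols per library, Sept4 and Ndrg1 among them, FPKM lay above its own upper bound, and comparisons therefore set the bounds of one library against those of the other. Depth is in no column of the files used here. Taking the bounds as 2 standard deviations to each side, the KO P14, control P14 and KO P7 libraries were 1.06, 0.810 and 0.965 times as deep as the control P7 library. On the same reading Gja10 rested on 41.4 to 86.5 fragments per library, Onecut1 on 48.3 to 154 and Ndrg1 on 2798 to 17253. Fezf2 itself was at 0.126 FPKM in KO and 4.02 FPKM in control retina at P14, and at 0.592 FPKM in KO and 8.32 FPKM in control retina at P7. Of the defining markers of retina, Rlbp1, a Mueller glia gene, ran from 179 to 303 FPKM over the 4 libraries.

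The 10 genes spanned more than 2 orders of magnitude within each library. At P14, Sept4, Ndrg1, Calb1, Prox1 and Adra2a followed each other with bounds apart in both genotypes, Onecut2 was lowest with bounds apart, and neighbours among Gja10, Lhx1, Onecut1 and Onecut3 overlapped. At P7, Ndrg1, Prox1 and Sept4 stood highest in both genotypes, in that order, and neighbours among Onecut2, Onecut3 and Gja10, the 3 lowest, overlapped. Ndrg1 made up 31.0% of the summed FPKM of the 10 genes in KO and 32.6% in control retina at P14, and 73.7% in KO and 74.4% in control retina at P7. Its level in control retina at P7 was above that of 99.7% of all genes. A sum over the 10 genes is therefore mostly Ndrg1 at P7, and the genes are described one by one.

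**Figure D1:**
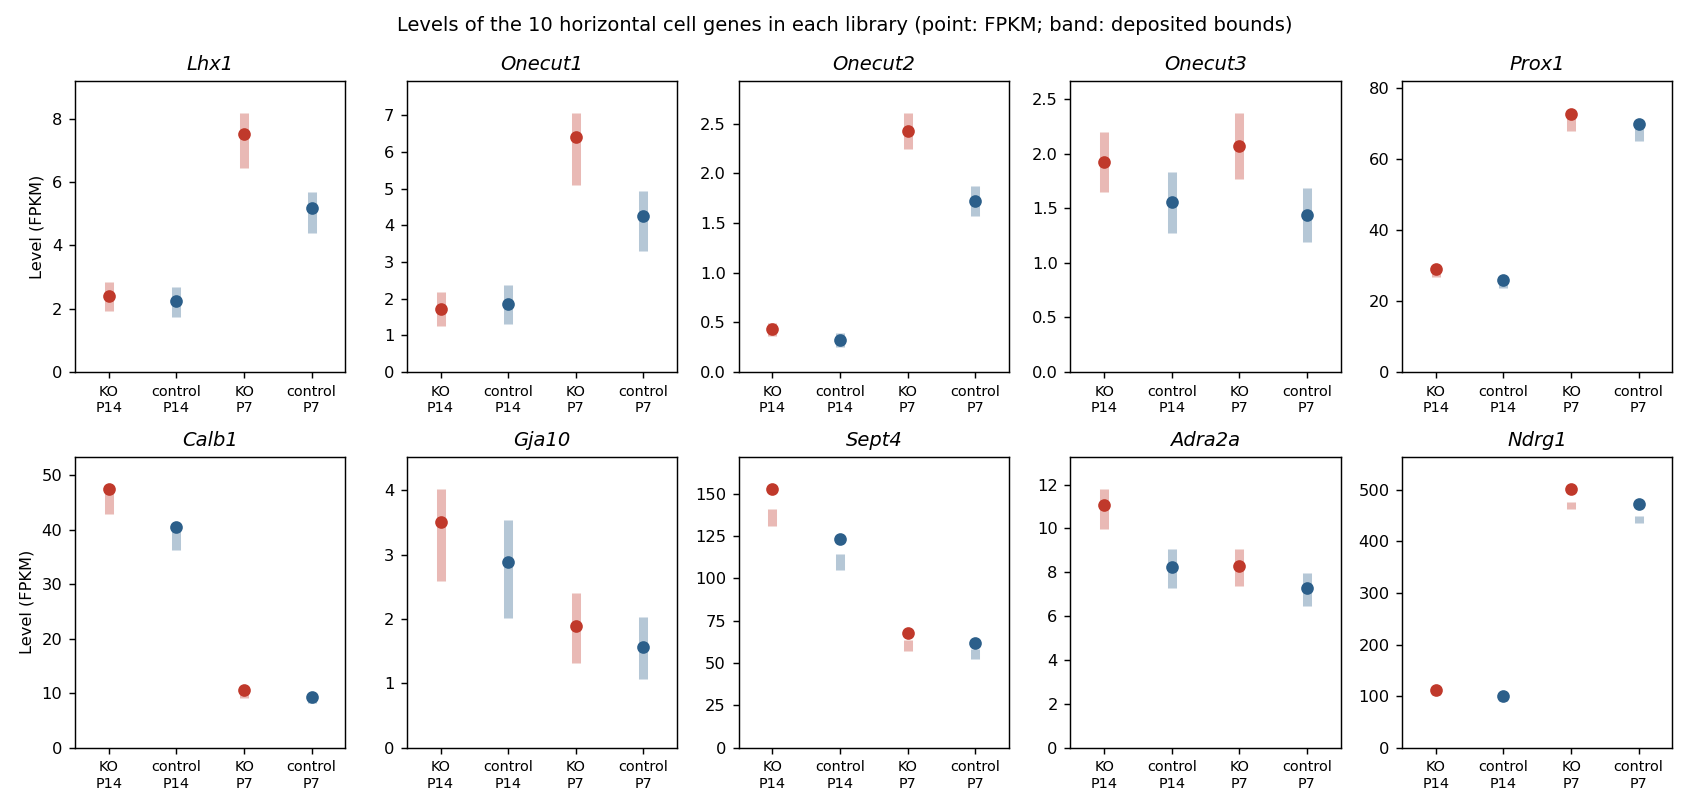
Level in FPKM (vertical axes, linear from 0, a scale per gene) of each horizontal cell gene in the KO P14, control P14, KO P7 and control P7 libraries; points are FPKM and shaded bands the deposited bounds. Calb1 and Sept4 are higher at P14 and Lhx1, Onecut1, Onecut2, Prox1 and Ndrg1 higher at P7 in both genotypes, and for Sept4 and Ndrg1 the points lie above their bands.

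At P14 the transcription factor genes Lhx1, Onecut1, Onecut2 and Prox1 and the stress-responsive gene Ndrg1 had fallen relative to P7, and Calb1, Sept4, Gja10 and Adra2a had risen. In whole retina, fewer cells of a type and less RNA per cell cannot be told apart. Of the 10 genes, 4 were higher and 5 lower at P14 with bounds apart in KO retina, where 29.0% and 39.4% of 13044 genes were. In control retina 2 were higher and 5 lower with bounds apart, where 27.6% and 37.7% of 13112 genes were. After adding 1 FPKM, the medians of the 10 log2 differences, P14 minus P7, were -0.66 in KO and -0.40 in control retina. Over all genes the medians were -0.09 and -0.08. Those of the 10 genes fall between rising and falling genes and describe no shared change. The 5 transcription factor genes had medians of -1.30 in KO and -0.94 in control retina. The other 5 genes, Ndrg1 included, had medians of 0.64 and 0.60. A limma model with a term for genotype and one for age was fitted to log2(FPKM + 1) of all 4 libraries. By its age term, adjusted by Benjamini-Hochberg at a threshold of 0.05, 4 of the 10 genes rose and 5 fell, where 30.7% of 12934 genes rose and 40.6% fell. That fit has 1 residual degree of freedom and borrows its spread from all genes. An age difference was thus common among all genes of these libraries.

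Prox1, a homeodomain factor that drives progenitors out of the cell cycle (chromosome 1, 191945658 to 191994559 in mm9, the build of the files), was at 29.0 FPKM in KO retina at P14 and 72.7 FPKM at P7. In control retina it was at 25.8 FPKM at P14 and 69.8 FPKM at P7. The P14 libraries lay far below both P7 libraries, at 39.9% of the P7 level in KO and 37.0% in control retina, and Prox1 fell in the limma fit (age term -1.35 ± 0.08 SE on the log2 scale, adjusted p = 2.775e-08).

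Lhx1, the LIM homeodomain factor (chromosome 11, 84332881 to 84339036), was at 2.41 FPKM at P14 and 7.54 FPKM at P7 in KO retina, and at 2.23 FPKM at P14 and 5.20 FPKM at P7 in control retina. Onecut1, a cut-homeodomain factor (chromosome 9, 74709728 to 74737454), was at 1.72 FPKM at P14 and 6.40 FPKM at P7 in KO retina, and at 1.86 FPKM at P14 and 4.26 FPKM at P7 in control retina. In both genes the bounds of the P14 libraries overlapped and the KO P7 library stood highest of the 4. Lhx1 fell by 1.13 ± 0.12 SE and Onecut1 fell by 1.16 ± 0.14 SE in the limma age term (adjusted p = 4.875e-06 and 1.08e-05).

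Onecut2, the paralog that acts partly in place of Onecut1 (chromosome 18, 64500018 to 64558142), had the lowest P14 levels of the 10 genes. It was at 0.431 FPKM at P14 and 2.42 FPKM at P7 in KO retina, and at 0.322 FPKM at P14 and 1.72 FPKM at P7 in control retina. That is 17.8% of the P7 level in KO and 18.7% in control retina, and Onecut2 fell by 1.15 ± 0.12 SE on the log2(FPKM + 1) scale, which understates the change of low genes (adjusted p = 3.234e-06). With 0.1 FPKM added in place of 1, its log2 differences were -2.25 in KO and -2.11 in control retina, in place of -1.26 and -1.04. Onecut3, the remaining paralog (chromosome 10, 79957651 to 79980005), did not follow the others. It was at 1.93 FPKM at P14 and 2.07 FPKM at P7 in KO retina, and at 1.56 FPKM at P14 and 1.44 FPKM at P7 in control retina, with overlapping bounds between the ages in each genotype (limma age term -0.0006 ± 0.11 SE, adjusted p = 0.9967). Onecut3 thus made up 47.3% of the summed ONECUT levels in KO and 41.6% in control retina at P14, and 19.0% in KO and 19.4% in control retina at P7.

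Calb1, the calbindin gene (chromosome 4, 15808411 to 15833856), was at 47.4 FPKM at P14 and 10.5 FPKM at P7 in KO retina, and at 40.5 FPKM at P14 and 9.36 FPKM at P7 in control retina. Both P14 libraries stood far above both P7 libraries, 4.50-fold in KO and 4.32-fold in control retina, and Calb1 rose in the limma fit (2.04 ± 0.09 SE, adjusted p = 2.168e-09). Sept4, a septin gene of the cytoskeleton that RefSeq lists as Septin4 (chromosome 11, 87394633 to 87404041), was at 153 FPKM at P14 and 67.6 FPKM at P7 in KO retina. In control retina Sept4 was at 123 FPKM at P14 and 62.0 FPKM at P7. It rose as well (1.07 ± 0.08 SE, adjusted p = 1.309e-07).

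Gja10 encodes connexin 57 (chromosome 4, 32687840 to 32689357), the main gap junction protein between horizontal cells. It was at 3.51 FPKM at P14 and 1.89 FPKM at P7 in KO retina, and at 2.88 FPKM at P14 and 1.57 FPKM at P7 in control retina. The bounds of the ages were apart in KO and overlapped in control retina, and Gja10 rose in the limma fit (0.62 ± 0.11 SE, adjusted p = 0.0003238). Adra2a, the alpha-2A adrenergic receptor gene (chromosome 19, 54119672 to 54123472), was at 11.1 FPKM at P14 and 8.29 FPKM at P7 in KO retina, and at 8.25 FPKM at P14 and 7.31 FPKM at P7 in control retina. Its bounds were apart between the ages in KO and overlapped in control retina. Its limma age term of 0.27 ± 0.10 SE passed the threshold (adjusted p = 0.03577) but no longer with small RNAs and short loci included, on a TPM scale or with no floor (adjusted p = 0.0566, 0.156 and 0.0985).

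Ndrg1, a gene induced by differentiation and low oxygen in many cell types (chromosome 15, 66760880 to 66801203), had the largest age difference of the 10 on the log2(FPKM + 1) scale, where Onecut2 had the largest as a ratio. It was at 112 FPKM at P14 and 502 FPKM at P7 in KO retina, and at 100 FPKM at P14 and 472 FPKM at P7 in control retina. The P14 level was 22.4% of the P7 level in KO and 21.2% in control retina, among the lowest 0.46% and 0.305% of all genes' differences, and Ndrg1 fell (-2.19 ± 0.07 SE, adjusted p = 1.726e-10). The 9 other hypoxia-responsive genes listed gave mostly the opposite sign. In KO retina 7 were higher and 1 lower at P14 with bounds apart, where 29.0% and 39.4% of all genes were. In control retina 6 of 8 measured were higher and 0 lower, where 27.6% and 37.7% of all genes were. A part of low oxygen in the fall of Ndrg1 was not tested. Between genotypes at P14, 3 of these 9 were higher and 2 lower in KO retina with bounds apart, against 7.45% and 8.24% of genes. At P7, 1 was higher and 0 lower in this way, against 7.34% and 6.1%. Regardless of bounds, 7 of the 9 were higher in KO retina at P14 and 8 at P7, against 50.8% and 52.3% of genes.

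**Figure D2:**
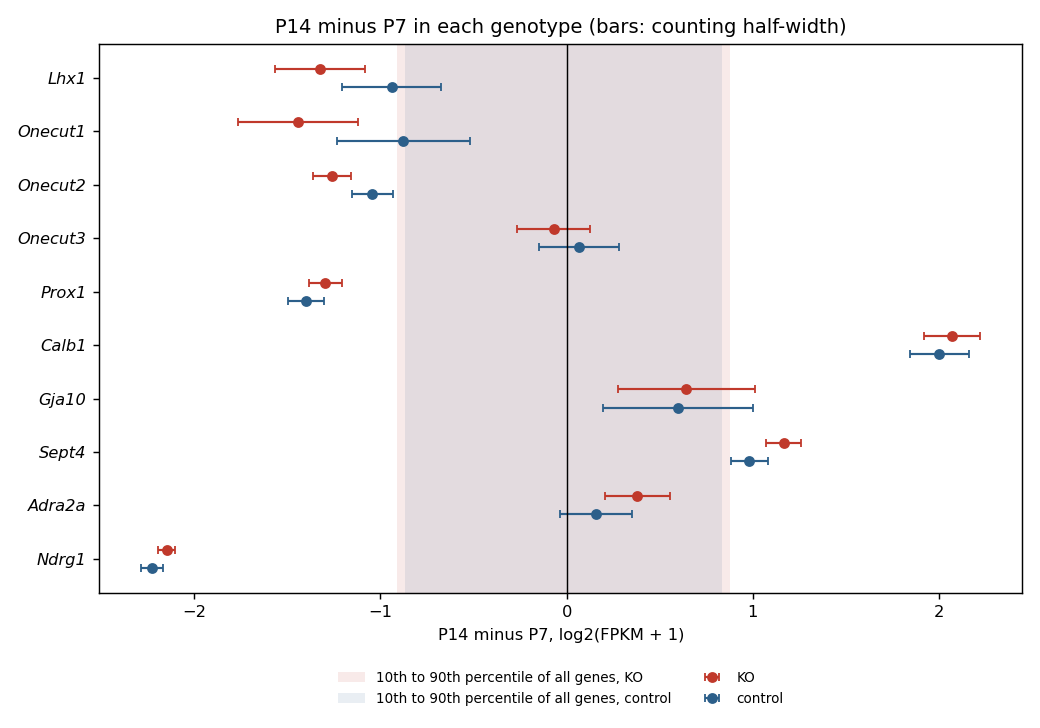
Log2 difference P14 minus P7, after adding 1 FPKM, for each gene in KO (red) and control (blue) retina; horizontal bars are the half-widths of the bounds of both libraries combined and shading spans the 10th to 90th percentile of all genes. Calb1 lies near 2 and Ndrg1 near -2.2 in both genotypes, and Onecut3 lies at 0 while Onecut1 and Onecut2 lie below it.

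Between the genotypes, most horizontal cell genes had higher levels in KO than in control retina at P14. On the log2(FPKM + 1) scale the largest differences were in Adra2a, Sept4, Calb1 and Gja10; as ratios of FPKM, those of Onecut2 and Onecut3 exceeded those of Calb1 and Gja10, with overlapping bounds. Among the transcription factor genes Prox1 alone had bounds apart. With 1 library per genotype there is no test at a single age, and the counts describe these libraries. Of the 9 genes at 1 FPKM or more, Onecut2 being below that floor, 8 were higher and 1 lower in KO retina, where 50.8% and 49.2% of 12804 genes were. Higher levels with bounds apart were found for 5 genes, where 7.45% of all genes were higher in this way, and lower ones for 0, where 8.24% were lower. The median log2 difference of the 9 genes was 0.19, against 0.003 over all genes.

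Adra2a was at 11.1 FPKM in KO and 8.25 FPKM in control retina at P14 (bounds 9.97 to 11.8 and 7.27 to 9.08), a ratio of 1.34 and a log2 difference of 0.39, above that of 98.2% of all genes. Sept4 was at 153 FPKM in KO and 123 FPKM in control retina (bounds 131 to 141 and 105 to 115), a ratio of 1.24. Calb1 was at 47.4 FPKM in KO and 40.5 FPKM in control retina, a ratio of 1.17. All 3 genes had bounds apart under each scaling tried. Ndrg1 was at 112 FPKM in KO and 100 FPKM in control retina, and Prox1 at 29.0 FPKM in KO and 25.8 FPKM in control retina, at ratios of 1.122 and 1.123. Their bounds were apart too, those of Prox1 no longer on a TPM scale or after centring on the median of all genes. Gja10 was at 3.51 FPKM in KO and 2.88 FPKM in control retina with overlapping bounds, a ratio of 1.22.

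Among the other transcription factor genes no bounds were apart at P14. Lhx1 was at 2.41 FPKM in KO and 2.23 FPKM in control retina, Onecut1 at 1.72 FPKM in KO and 1.86 FPKM in control retina, and Onecut3 at 1.93 FPKM in KO and 1.56 FPKM in control retina. Onecut2 was at 0.431 FPKM in KO and 0.322 FPKM in control retina. All 4 had overlapping bounds, and the ratios were 1.08 for Lhx1, 0.922 for Onecut1, 1.24 for Onecut3 and 1.34 for Onecut2.

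At P7, all 10 horizontal cell genes had higher levels in KO than in control retina, and the largest differences were in the transcription factor genes Lhx1, Onecut1, Onecut2 and Onecut3. Higher levels with bounds apart were found for 5 of the 10, where 7.34% of 12665 genes were higher in this way, and lower ones for 0, where 6.1% were lower. Any higher level was found for 52.3% of all genes. The median of the 10 log2 differences was 0.17, against 0.01 over all genes.

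Onecut1 was at 6.40 FPKM in KO and 4.26 FPKM in control retina at P7 (bounds 5.10 to 7.05 and 3.31 to 4.94), a ratio of 1.503. Lhx1 was at 7.54 FPKM in KO and 5.20 FPKM in control retina (bounds 6.46 to 8.17 and 4.38 to 5.70), a ratio of 1.45. Their log2 differences of 0.49 and 0.46 lay above those of 99.4% and 99.3% of all genes. Onecut3 was at 2.07 FPKM in KO and 1.44 FPKM in control retina, a ratio of 1.44, and Onecut2 at 2.42 FPKM in KO and 1.72 FPKM in control retina, a ratio of 1.41. The bounds of the genotypes were apart for each of these 4 genes, and the 3 ONECUT levels summed to 10.9 FPKM in KO and 7.42 FPKM in control retina. Prox1, the fifth transcription factor gene, was at 72.7 FPKM in KO and 69.8 FPKM in control retina with overlapping bounds, a ratio of 1.04.

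The other 5 genes differed less at P7. Calb1 was at 10.5 FPKM in KO and 9.36 FPKM in control retina, Adra2a at 8.29 FPKM in KO and 7.31 FPKM in control retina, and Gja10 at 1.89 FPKM in KO and 1.57 FPKM in control retina. Sept4 was at 67.6 FPKM in KO and 62.0 FPKM in control retina. For these 4 genes the bounds overlapped and ratios ran from 1.09 to 1.21. Ndrg1 was at 502 FPKM in KO and 472 FPKM in control retina, a ratio of 1.06 with bounds apart, and on a TPM scale its bounds overlapped at a log2 difference of 0.04, against 0.09 in FPKM.

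The size of the genotype difference was not alike at both ages. The KO minus control log2 difference at P14 minus that at P7 was -0.57 for Onecut1, -0.38 for Lhx1 and -0.22 for Onecut2, each larger than its counting half-width of 0.48, 0.36 and 0.15. Onecut2 was below 1 FPKM at P14, where adding 1 FPKM shrinks its difference. As ratios of FPKM, KO to control, Onecut2 was alike at both ages, at 1.34 at P14 and 1.41 at P7. It was 0.18 for Sept4 and 0.08 for Ndrg1 in the other direction, with half-widths of 0.14 and 0.07. No test of these changes between the ages can be made, since the 4 libraries leave no residual degree of freedom for it.

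**Figure D3:**
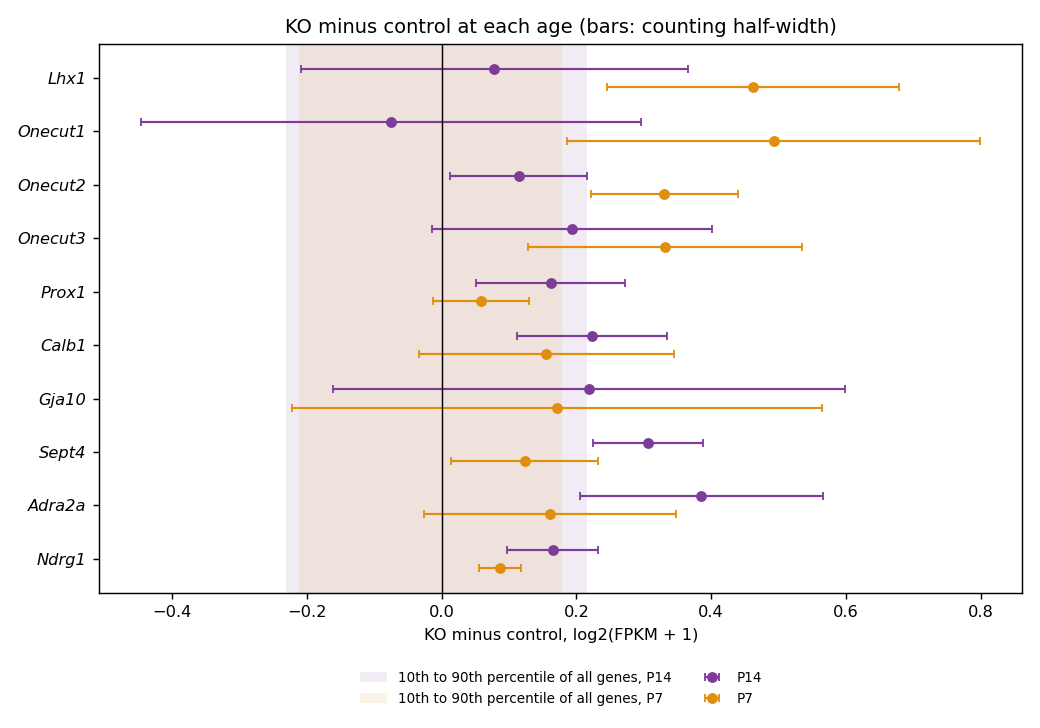
Log2 difference KO minus control, after adding 1 FPKM, for each gene at P14 (purple) and P7 (orange); bars are the combined half-widths of the bounds and shading spans the 10th to 90th percentile of all genes. Lhx1, Onecut1, Onecut2 and Onecut3 lie right of the shading at P7, and Calb1, Gja10, Sept4 and Adra2a right of it at P14, Calb1 and Gja10 by little.

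Over both ages, 8 of the 9 genes at 1 FPKM or more at each age were higher in KO retina at both, where 29.2% of 12223 genes were. With bounds apart at both ages there was 1 gene, Ndrg1, where 1.5% of all genes were. In the limma fit over the 4 libraries, the genotype term called 0 of the 10 genes in either direction at an adjusted p of 0.05, and 31 of 12934 genes, 0.24%, all of them lower. At an unadjusted p under 0.05 stood 5 of the 10 genes and 1182 of the 12934 genes fitted. The smallest adjusted p of the 10 was that of Sept4 (genotype term 0.21 ± 0.08 SE, adjusted p = 0.4161), followed by Adra2a (0.27 ± 0.10 SE, adjusted p = 0.4656). On a TPM scale 0 of the 10 genes had an unadjusted p under 0.05, where 1284 of 14266 genes did. With a pseudocount of 0.1 FPKM, with all loci and with no floor the number was 3, 3 and 2. The higher levels of the horizontal cell genes in KO retina thus did not pass the test across the ages. That test counts a genotype difference that changes with age as error.

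The share of higher genes depended on the scaling. On a TPM scale, which gives every library the same total, 24.2% of the genes with bounds apart were higher in KO retina at P14 and 29.4% at P7, against 47.5% and 54.6% in FPKM. On that scale Adra2a, Sept4, Calb1 and Ndrg1 were still higher with bounds apart at P14, where 3.9% of genes were, and Lhx1, Onecut1, Onecut2 and Onecut3 at P7, where 3.65% of genes were.

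Genes of neighbouring tissue and blood differed between the libraries compared. At P14 the summed level of 9 pigment epithelium genes was 81.1 FPKM in KO and 108 FPKM in control retina, that of 7 lens and vitreous genes 11.9 FPKM in KO and 50.3 FPKM in control retina, and that of 5 blood genes, near-identical globin genes among them, 356 FPKM in KO and 1180 FPKM in control retina. With bounds apart, 6 of 8, 2 of 4 and 5 of 5 measured genes were lower in KO retina and 0 were higher. Of all genes, 8.24% were lower and 7.45% higher in this way. At P7 the order was turned: the sums were 65.6 FPKM in KO and 51.5 FPKM in control retina for pigment epithelium, 30.2 FPKM in KO and 10.8 FPKM in control retina for lens and vitreous, and 339 FPKM in KO and 291 FPKM in control retina for blood. There 3 of 6, 2 of 4 and 1 of 5 measured genes were higher in KO retina with bounds apart and 0 lower. Of all genes, 7.34% were higher and 6.1% lower in this way. Immediate early genes summed to 147 FPKM in KO and 82.7 FPKM in control retina at P14. With bounds apart, 7 of 9 were higher and 0 lower. At P7 they summed to 111 FPKM in KO and 113 FPKM in control retina, and 1 of 8 was higher and 1 lower with bounds apart. No defining marker of these tissues was listed at 0, and the part of these differences in the levels of the horizontal cell genes was not tested.

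Of 20 other genes tied to horizontal cells, 18 were in the files and 14 reached 1 FPKM at P14 and 15 at P7. They did not share one direction between the genotypes. At P14, 3 were higher and 2 lower in KO retina with bounds apart, where 7.45% and 8.24% of all genes were. At P7, 4 were higher and 3 lower in this way, where 7.34% and 6.1% of all genes were. The medians of these related genes were 0.08 at P14 and 0.06 at P7. Of the early specification factors, Foxn4 and Ptf1a, which commit progenitors to this fate, were below 1 FPKM in all 4 libraries; they are named for that after their values were seen. Sall3 and Rorb fell by the limma age term (-0.75 ± 0.12 and -0.97 ± 0.08 SE, adjusted p = 0.0001086 and 5.35e-07). Pax6, shared with amacrine and ganglion cells, was at 86.7 FPKM in KO and 91.1 FPKM in control retina at P14 with overlapping bounds. At P7 it was at 98.6 FPKM in KO and 106 FPKM in control retina with bounds apart.

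Megf10 and Megf11, the cell surface proteins by which horizontal cells space themselves in a mosaic, had higher levels in KO retina at P7 with bounds apart. Megf10 was at 12.5 FPKM in KO and 9.47 FPKM in control retina and Megf11 at 11.3 FPKM in KO and 8.66 FPKM in control retina, ratios of 1.32 and 1.30. Both overlapped at P14, with ratios of 1.069 and 1.117, and both fell with age (-1.51 ± 0.11 and -0.65 ± 0.11 SE, adjusted p = 2.181e-07 and 0.0001443). Their values were thus ordered over the libraries like those of Lhx1, highest in KO retina at P7, next in control retina at P7 and lowest in the P14 libraries.

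The genes of inhibitory transmission did not share one direction at P7. Gad1, which makes GABA, was at 91.0 FPKM in KO and 102 FPKM in control retina at P14 and at 47.1 FPKM in KO and 53.9 FPKM in control retina at P7, with bounds apart at both ages. Slc32a1, which loads GABA into vesicles, was at 58.2 FPKM in KO and 53.2 FPKM in control retina at P14 with overlapping bounds, and at 37.3 FPKM in KO and 43.2 FPKM in control retina at P7 with bounds apart. Gad2, a second GABA-making enzyme gene, named after its values were seen, was at 10.4 FPKM in KO and 11.5 FPKM in control retina at P14 and at 9.48 FPKM in KO and 8.70 FPKM in control retina at P7, with overlapping bounds at both ages. These genes are also used by amacrine cells, which outnumber horizontal cells. The neurofilament genes Nefl, Nefm and Nefh, shared with ganglion cells, were higher in KO retina with bounds apart at P14, at ratios of 1.11, 1.22 and 1.18, and at P7 for Nefl and Nefm, at 1.17 and 1.098.

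Among the genes of axon wiring, Plxna4 was at 0.934 FPKM in KO and 1.36 FPKM in control retina at P14, a ratio of 0.686 with bounds apart, and at 6.69 FPKM in KO and 6.21 FPKM in control retina at P7 with overlapping bounds. Sema6a, its ligand, had overlapping bounds at both ages and fell with age (-1.23 ± 0.10 SE, adjusted p = 3.675e-07). Panx1, a channel protein at horizontal cell dendrites, differed between the genotypes by less than its bounds at both ages and also fell (-1.69 ± 0.09 SE, adjusted p = 1.936e-08). Of these genes, 15 were fitted and 0 were called by the limma genotype term. At an unadjusted p under 0.05 stood Nefl, Nefm, Gad1 and Megf11, and the smallest Benjamini-Hochberg adjusted p was 0.3932, for Nefl. Among all genes fitted, 1182 of 12934 were under that unadjusted cutoff. On a TPM scale Gad1, lower in KO retina, stayed under it, and Nefl, Nefm and Megf11, higher in KO retina, did not. With all loci or with no floor, Megf11 alone of these genes was no longer under it.

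Genes of other retinal cells were counted in the same way between the genotypes. Of all genes, 7.45% were higher and 8.24% lower in KO retina with bounds apart at P14, and 7.34% and 6.1% at P7. Ganglion cell genes had 5 of 12 higher and 0 lower with bounds apart at P14, median 0.19, and 3 higher and 0 lower at P7, median 0.10. Amacrine genes had 1 of 10 higher and 0 lower at P14, median 0.07, and 0 of 9 higher and 1 lower at P7, median -0.05. Bipolar genes had 1 of 10 higher and 6 lower at P14, median -0.25, and 3 higher and 4 lower at P7, median -0.13. Photoreceptor genes had 5 of 8 higher and 2 lower at P14 and 2 higher and 1 lower at P7, and Mueller glia genes 2 of 7 higher and 1 lower at each age. No test of the difference between these lists and the horizontal cell genes was made.

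**Figure D4:**
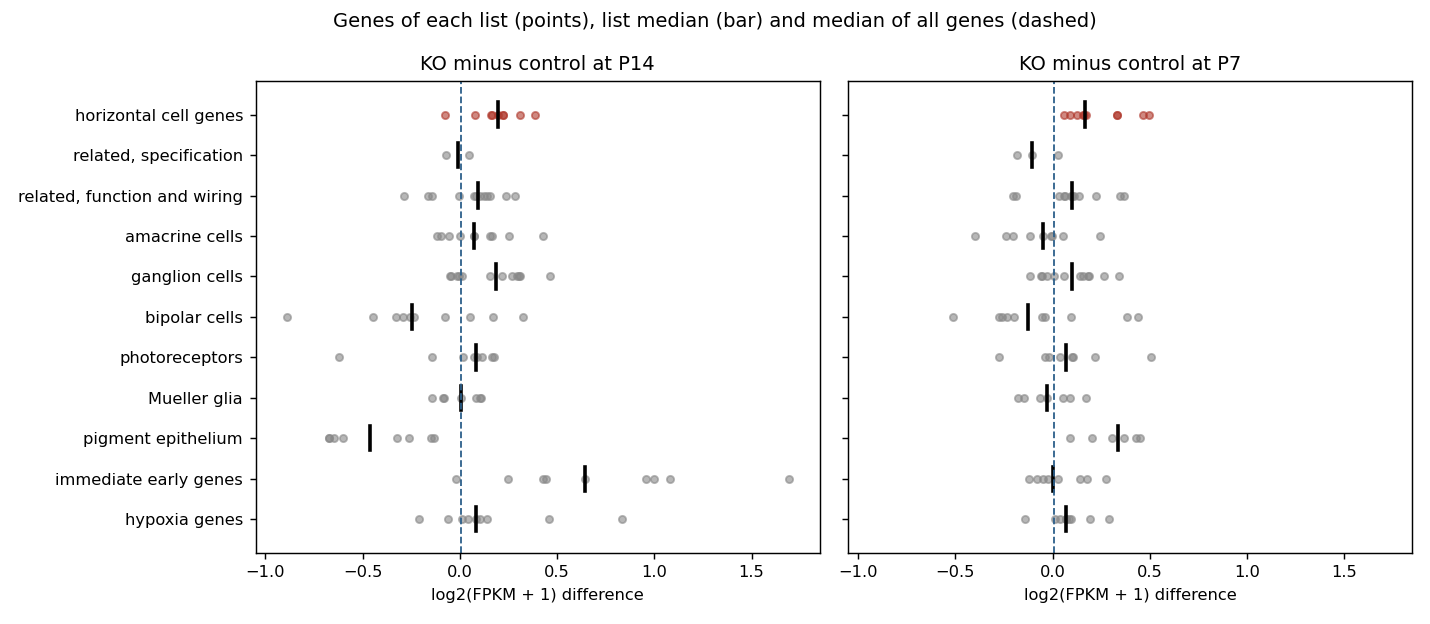
Log2 difference KO minus control at P14 (left) and P7 (right), after adding 1 FPKM, for the genes of each list at 1 FPKM or more (points), the list median (bar) and the median of all genes (dashed line); lens, vitreous and blood genes, which reach beyond these axes, are left out. All horizontal cell genes (red) lie right of 0 at P7 and all but Onecut1 at P14.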

How the data were processed

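Whole-retina RNA was sequenced as 36-base single reads from randomly primed cDNA, per the labels' protocols, which name no strand marking. The authors deposited FPKM with bounds and a status per gene locus. CASAVA 1.8.2, TopHat2 2.0.8b, Cufflinks 2.1.1 and the mm9 build are named per the submitters' processing notes; no source used here gives the annotation or options. RefSeq lists noncoding genes overlapping Prox1 and Onecut1, whose reads cannot be told apart here.

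Loci of a symbol were summed, 16 symbols with failed values were dropped, and 740 small RNAs and short loci (under 300 bases) were set aside. Values were compared as log2(FPKM + 1) among genes at 1 FPKM or more in either library. limma 3.58.1 in R 4.3.3 fitted genotype and age, with a mean-variance trend, to the genes that reached 1 FPKM in 2 or more libraries. Its p-values were adjusted by Benjamini-Hochberg. The fit was also run on data simulated under the same model, which cannot show whether that model holds for unreplicated libraries. The limma p-values rest on 1 residual degree of freedom, the change of the genotype difference between the ages. They rest further on the spread borrowed from all genes, which counted for 10.88 degrees of freedom. With 1 library per group they hold no measure of the spread between mice. The half-width of a log2 difference combines the half-widths of both libraries in quadrature. Amplified reads are not independent molecules, so bounds cover counting error only.

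The members and lists were chosen with earlier results of these data known. Named were all 10 genes, the related genes with bounds apart between the genotypes and up to 4 others by age difference; Tfap2a and Tfap2b were not analysed here. Alternatives were a pseudocount of 0.1 FPKM, a TPM scale, centring, no floor, a floor of 5 FPKM and, for limma, all loci.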

Additional observations from a re-analysis of the deposited data

Results flagged for a closer look

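Among the horizontal cell and related genes, 3 had KO minus control differences of opposite sign at the ages and bounds apart at 1 age or both. Each group is 1 library, and the change between the ages was not tested. Onecut1 had log2 differences of -0.07 at P14 and 0.49 at P7. Slc32a1 had 0.13 at P14 and -0.21 at P7, and Plxna4 had -0.29 at P14 and 0.09 at P7. Opposite signs with overlapping bounds at both ages, as for Gad2 with -0.14 at P14 and 0.11 at P7, are not counted here.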

How the results depend on the processing

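Of 181 alternative values for log2 differences of single horizontal cell genes, 164 stayed within their counting half-width, 17 moved by more and 0 changed the sign of a difference with bounds apart. With a floor of 5 FPKM fewer genes are counted: 5 members were higher in KO retina at P14, 3 were higher with bounds apart at P7, 3 were lower at P14 than at P7 with bounds apart in control retina, and the median age difference in KO retina was -1.30. The limma genotype term called 14 genes in TPM, and without a floor 0 (1130 at an unadjusted p under 0.05), and 0 of the 10 members under every alternative tried; the cause was not tested. The age term called 5 members lower under all 4 alternatives, and 3 rather than 4 higher under 3 of them, Adra2a being the one lost. No paired analysis was possible because each group has 1 library and the labels carry no replicate numbers, beyond the limma fit itself. Its genotype term, fitted along with age, sets KO against control within each age. Leaving out a library leaves the limma fit no residual degree of freedom, and its genotype term is then the difference at the remaining age given above. Counting error limits Gja10 most, whose half-width was 0.38 at P14 and 0.39 at P7 on the log2 scale, wider than its differences between the genotypes.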
